A study of Mus musculus with 24 samples.

Results

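The genes described here encode the proteins of the cytoplasmic ribosome. They were chosen by name, as every row whose symbol has the form of a large-subunit (Rpl) or small-subunit (Rps) protein, with Rplp0, Rplp1, Rplp2 and Rpsa, and a mean of at least 1 CPM (counts scaled to a library total of 1000000) over all libraries. This gave 84 of the 26264 genes in the table, 52 of the large and 32 of the small subunit, and no symbol of that form fell below the minimum. The rule uses no difference between samples. It does not catch, for example, Rps3a1, Rpl36al, Fau and Rack1, whose symbols have another form but whose products are also part of the ribosome.

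RNA-seq was performed on mouse embryonic stem cells (ESCs) of 2 lines, each monoclonal, so every difference between the lines is a difference between single clones. In BAP1-AID ESCs an auxin-inducible degron was fused to BAP1, which removes ubiquitin from histone H2A. In UTX-AID ESCs it was fused to UTX, a histone H3 demethylase encoded by Kdm6a. All cells also expressed the auxin receptor TIR1 stably, so that indole-3-acetic acid (IAA) directs the tagged protein to degradation. Cells kept without IAA (−IAA) or given it (+IAA) were sampled before retinoic acid (RA) and after 3 h and 6 h of it (0, 3 and 6 h below). This gave 12 groups of 2 libraries, 24 in all. The +IAA cells received IAA for a short time before RA, so they already had it when first sampled. RA was given without leukemia inhibitory factor (LIF), which the ESC medium otherwise held. Differences between RA times below therefore combine RA with the absence of LIF, and the 2 were not separated. The sources used here do not give what the −IAA cells received in place of IAA, or whether the 2 libraries of a group came from separate cultures, so the p-values measure only the spread between libraries, which may be technical.

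Ribosomal proteins assemble on ribosomal RNA in the nucleolus and join into a large and a small subunit. Each protein is usually present once in a ribosome, and the genes that encode them are transcribed strongly in growing cells. Many of their mRNAs start with a C followed by a run of pyrimidines, the terminal oligopyrimidine (TOP) motif, through which their translation follows growth signals. Several have a paralog or many processed copies elsewhere in the genome, which matters for counting reads. ESCs divide quickly and carry high levels of these mRNAs.

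Promoter sequence was available for 63 of the 84 genes, in RefSeq's table of 250 bases before to 50 bases after each annotated start. An annotated start at a C followed by 4 pyrimidines, letters that a TOP motif would show, was held by 13 of the 63 (20.6%), against 2.49% of all 27025 promoters in that table. Letting that run begin up to 5 bases on either side gave 46.0% against 18.5%. The 6 letters CTTCCG on either strand, the core that ETS factors recognise, were in 65.1% of the 63 and in 17.2% of all. The GC box GGGCGG was in 58.7% against 35.9%, AAGATGGC, the core of the YY1 motif, in 7.94% against 2.88%, and TATAAA in 11.1% against 14.2%. A match describes letters only. The following stretches, placed on GRCm39 by exact match, run from 80 bases before the annotated start through the next 20 bases. They are shown for some of the genes called between the clones later and for Rpl22, the parent of Rpl22l1. The call of Rps27 rests on few libraries, as described below. Capitals mark any of those 4 motifs.
Rpl22l1, chr3:28859577-28859676, plus strand: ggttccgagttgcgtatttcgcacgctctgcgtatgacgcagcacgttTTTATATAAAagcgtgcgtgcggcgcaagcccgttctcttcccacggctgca
Rpl22, chr4:152410103-152410202, plus strand: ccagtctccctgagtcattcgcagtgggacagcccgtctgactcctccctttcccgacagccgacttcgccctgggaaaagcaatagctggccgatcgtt
Rpl26, chr11:68792312-68792411, plus strand: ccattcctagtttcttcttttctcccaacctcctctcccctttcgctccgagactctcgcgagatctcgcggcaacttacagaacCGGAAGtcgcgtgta
Rplp2, chr7:141027484-141027583, plus strand: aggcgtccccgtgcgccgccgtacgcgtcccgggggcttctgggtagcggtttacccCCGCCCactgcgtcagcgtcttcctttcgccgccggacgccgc
Rps27, chr3:90120936-90121035, minus strand: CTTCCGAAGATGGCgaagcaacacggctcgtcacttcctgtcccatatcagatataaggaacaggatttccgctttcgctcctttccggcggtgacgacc
Within these windows Rpl22l1 holds TATAAA on both strands, where the matches overlap, while its paralog Rpl22 holds none of the motifs. Rps27 holds CTTCCG and AAGATGGC side by side, Rplp2 the GC box on the other strand, and Rpl26 CTTCCG on the other strand just after its annotated start.

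The libraries held 42018795 to 54034789 estimated counts each, so that 3 counts correspond to 0.0555 to 0.0714 CPM and depth limited only the 2 faintest genes, Rpl3l and Rpl32l. Counting intervals of that kind cover counting error only. Unless stated otherwise, CPM values are scaled by the trimmed mean of M values (TMM) over all 24 libraries. The marker sums here, and the mean levels over all libraries and levels per kilobase below, are CPM without that scaling. The 8 ESC markers summed to 3875 to 4877 CPM and were all above 1 CPM on average. The 6 fibroblast markers summed to 2.54 to 13.5 CPM, the 5 primitive endoderm markers to 2.19 to 8.76 and the 4 trophoblast markers to 0.121 to 1.29, and none of these lists had a gene at 0 in all libraries. The 4 markers of 2-cell-like cells summed to 0.744 to 1.53 CPM in BAP1-AID and 17.7 to 35.2 CPM in UTX-AID. Bap1 and Kdm6a mRNAs do not check the labels, because the degron acts on the protein. With IAA, Bap1 differed by 0.00 ± 0.04 on the log2 scale (SE, adjusted p = 0.973) in BAP1-AID and Kdm6a by 0.13 ± 0.04 (adjusted p = 0.0717) in UTX-AID, by edgeR's quasi-likelihood test. By the same test, Kdm6a was higher with IAA in BAP1-AID, by 0.45 ± 0.05 (adjusted p = 2.50e-05). Bap1 differed by 0.07 ± 0.04 (adjusted p = 0.527) in UTX-AID.

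The 84 genes together took 8.47% to 11.2% of the counts of a library, and 2 BAP1-AID −IAA libraries stood apart. After scaling, the summed level was 104982 CPM in 0 h replicate 1 and 112741 CPM in 3 h replicate 1. The other 22 libraries lay between 83595 and 91853 CPM, with a median of 88621. Their own replicates were at 87549 and 84219 CPM, so each pair lay further apart than the whole span of the other 22. In them 78 and 81 of the 84 genes lay above their BAP1-AID mean, with median deviations of 0.21 and 0.31 on the log2 scale.
Genes outside the list with short transcripts were also higher there. The shortest sixth of all other genes above 5 CPM deviated by 0.14 and 0.19 in those libraries and the longest sixth by −0.15 and −0.21, whereas over the other 22 libraries the shortest sixth stayed between −0.05 and 0.04. The longest sixth was higher in the 6 BAP1-AID +IAA libraries, by 0.06 to 0.12. What set these libraries apart was not tested, and the counts of genes called in BAP1-AID below are given with and without both, except for the fits with GC and length offsets, which were run on all libraries only. Fits without both leave 2 groups with 1 library each, assumed to vary like the others.

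**Figure D1:**
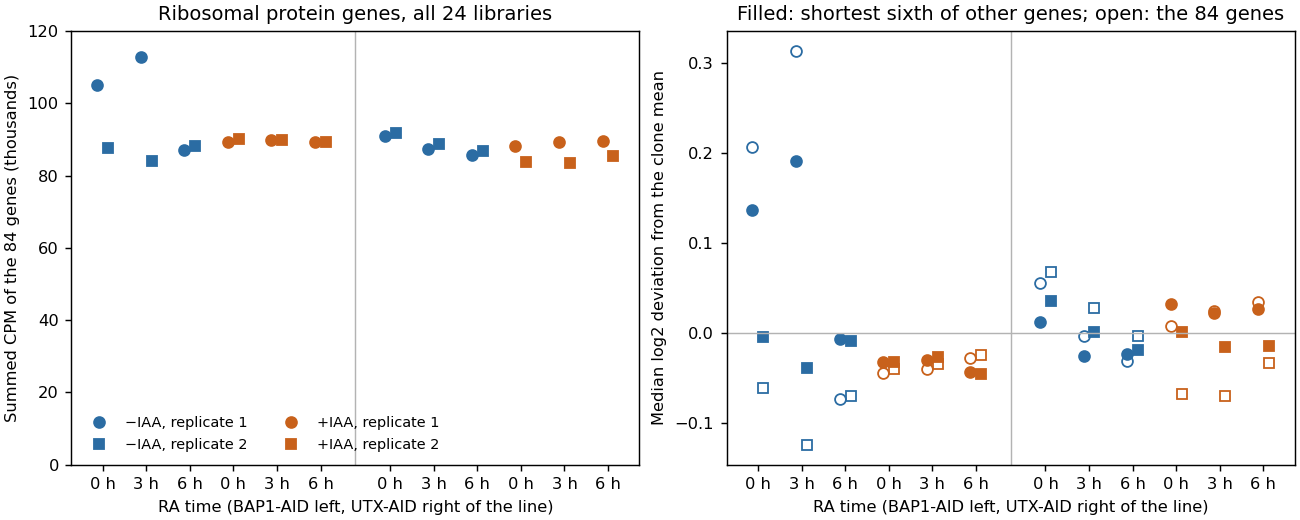
Left, summed CPM (axis in units of 1000 CPM) of the 84 ribosomal protein genes in each of the 24 libraries, by clone, IAA arm, RA time and replicate. Right, the median log2 deviation from the clone mean, for the 84 genes (open) and for the shortest sixth of other genes (filled). The BAP1-AID −IAA replicate 1 libraries at 0 h and 3 h sit above the other 22, which lie between 83595 and 91853 CPM.

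Among the remaining BAP1-AID libraries the pairs were close. The median absolute log2 difference over the 84 genes was 0.0157 to 0.0173 between the replicates of the 4 other BAP1-AID groups and 0.0509 to 0.0986 between those of the 6 UTX-AID groups, against 0.266 and 0.429 in the 2 affected pairs. In UTX-AID +IAA, replicate 1 was above replicate 2 at every time, with 88343 against 83941 CPM at 0 h, 89241 against 83595 at 3 h and 89742 against 85508 at 6 h. In UTX-AID −IAA replicate 2 was the higher one, with 91853 against 91046 CPM at 0 h, 88899 against 87405 at 3 h and 86834 against 85753 at 6 h.

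Levels per gene ran from 1.30 to 2954 CPM on average, with a median of 1016. Expressed per kilobase (kb) of the annotated canonical transcript, high levels included Rps14 at 3642, Rps18 at 2995, Rps2 at 2695 and Rpl13 at 2439 CPM per kb. Those 4 genes encode core proteins of the ribosome, and Rpl13 is the one of the large subunit. The 5 lowest were Rpl3l at 0.913, Rpl32l at 3.71, Rpl34 at 10.8, Rpl29 at 15.3 and Rpl39l at 37.4 CPM per kb. The order depends on the transcript model, since the canonical transcripts of these genes run from 382 to 6111 bases. Per kb of coding sequence, Rpl41 was highest at 9711, followed by Rps14 at 4897 and Rps27a at 4326 CPM per kb, and Rpl41 has the shortest coding sequence, 138 bases. Most of the genes varied little over the 24 libraries. The highest library was less than 2 times the lowest on the log2(CPM + 0.5) scale for 74 of the 84 genes (88.1%), against 49.9% of the 9829 genes above 5 CPM.

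Several of the low values belong to genes that share nearly all their coding sequence with a copy elsewhere. A copy of at least 95% identity with a mean of at least 1 CPM was found for 25 of the 84 genes. Rpl34 itself was at 21.5 CPM while its pseudogene Rpl34-ps1, identical over 99.43% of the coding sequence, was at 414 CPM. Rpl30 was at 168 CPM and its transcribed pseudogene Gm12191, 99.71% identical, at 453 CPM. For such pairs the level of each row depends on how the reads were shared out, and the levels of these rows are uncertain. Summing each gene with its copies, an alternative chosen after seeing the data, left the counts of calls in every comparison below within 1.5 times.

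Rps27, which encodes a small-subunit protein with a zinc finger, showed this most plainly. Its coding sequence, on the minus strand of chromosome 3 (gene at 90119819 to 90120977, GRCm39), is identical over all 252 bases to that of the retrocopy Rps27rt on the minus strand of chromosome 9 (114811434 to 114811807). The shared run is shown because no read within it can be assigned to one of them.
Rps27 and Rps27rt: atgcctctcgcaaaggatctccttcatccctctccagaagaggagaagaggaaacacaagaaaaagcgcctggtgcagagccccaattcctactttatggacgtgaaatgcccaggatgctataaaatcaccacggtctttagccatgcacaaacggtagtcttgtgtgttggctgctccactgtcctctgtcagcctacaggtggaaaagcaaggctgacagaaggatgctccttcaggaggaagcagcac
Rps27 was listed at 719 CPM in BAP1-AID −IAA 6 h replicate 2 and at 725 CPM in BAP1-AID +IAA 0 h replicate 2, and between 21.5 and 52.7 CPM in the other 22 libraries. In the same 2 libraries Rps27rt was at 221 and 213 CPM, against 620 to 1205 CPM elsewhere. Their sum was 940 and 938 CPM there, inside the range of 876 to 1250 CPM over the BAP1-AID libraries. The sum was 649 to 725 CPM in UTX-AID, below every BAP1-AID library. Fitted alone, Rps27 differed between the clones by −1.58 ± 0.38 (SE, adjusted p = 6.51e-04), a value that rests on those 2 libraries.

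**Figure D2:**
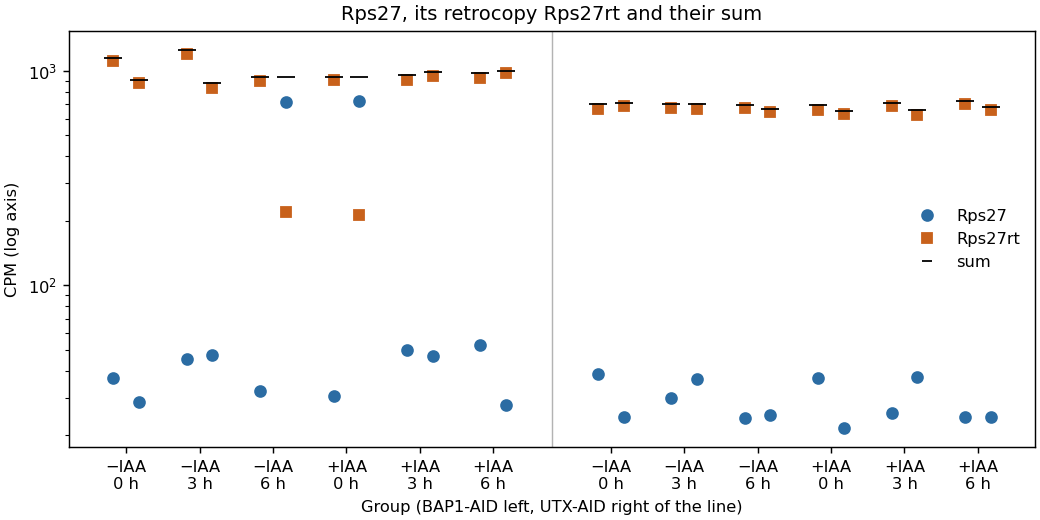
CPM (log axis) of Rps27, of the identical retrocopy Rps27rt and of their sum in each library, by clone, IAA arm and RA time. The pair changes places in 2 BAP1-AID libraries while the sum stays within the range of the other BAP1-AID libraries.

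The clone accounted for the largest differences among these genes. Over 12 libraries a clone, 24 genes were higher and 40 lower in UTX-AID than in BAP1-AID ESCs at an adjusted p below 0.05 (edgeR's quasi-likelihood test, adjusted over all genes tested). Those are 64 of the 84, and 74.9% of all 16816 genes tested were called in that comparison, so the share called is close to the background. By direction the background was 38.6% higher and 36.3% lower. The median difference was −0.09 on the log2 scale for the 84 genes and 0.07 for all genes. Most differences were small, and 55 of the 84 were within 0.3. By the study's own rule, which also asks for more than a 2-fold change, 1 gene was higher and 1 lower, against 26.5% of all genes called. These were Rpl3l (1.16), which depth limits, and Rps27 (−1.58), whose value rests on the 2 libraries described above. Of the 52 large-subunit genes 17 were higher and 20 lower, and of the 32 small-subunit genes 7 were higher and 20 lower. The levels of the clones did not overlap for 32 genes (38.1%, against 33.6% of all genes), 7 higher and 25 lower in UTX-AID. Each clone is 1 line, so clone, tagged protein and the handling of its libraries cannot be told apart.

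**Figure D3:**
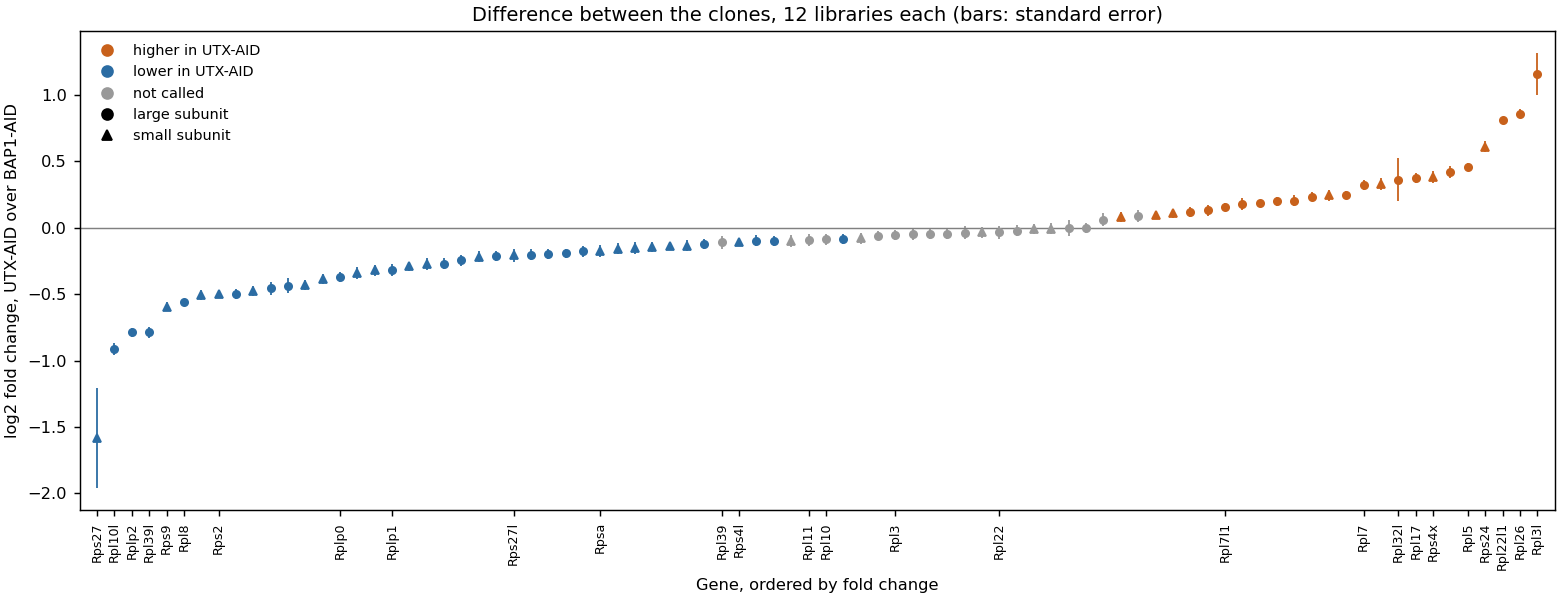
Log2 fold change of UTX-AID over BAP1-AID for each of the 84 genes, in order, from 12 libraries a clone (bars, standard error; colour, called direction; shape, subunit; names, genes described in the text). Most genes lie within 0.3 of 0, with Rpl26, Rpl22l1 and Rpl3l at the high end and Rps27, Rpl10l, Rplp2 and Rpl39l at the low end.

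Higher in UTX-AID were Rpl26, Rpl22l1, Rps24, Rpl5 and Rpl17. Rpl26, a large-subunit protein near the exit of the peptide tunnel, was at 894, 999 and 1143 CPM (lowest, median and highest) in BAP1-AID and at 1728, 1806 and 1873 CPM in UTX-AID. The ranges were well apart, a difference of 0.86 ± 0.03 (SE, adjusted p = 1.76e-16).
Rpl22l1, the paralog of the RNA-binding protein Rpl22, was at 133, 151 and 179 CPM against 249, 267 and 296 CPM. That is 0.81 ± 0.02 higher in UTX-AID (adjusted p = 8.00e-19). Rpl22 itself was at 577, 640 and 833 CPM against 609, 645 and 672 CPM, ranges that overlap, with a difference of −0.03 ± 0.05 (adjusted p = 0.537).
Rps24 differed by 0.61 ± 0.04, Rpl5 by 0.46 ± 0.03 and Rpl17, which lines the peptide exit tunnel, by 0.38 ± 0.04, and the clones did not overlap for any of the 3.

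Lower in UTX-AID were Rpl10l, Rplp2, Rpl39l, Rps9 and Rpl8. Rpl10l, a retrogene paralog of Rpl10 known from the testis, was at 119, 136 and 161 CPM in BAP1-AID and at 66.7, 72.3 and 80.3 CPM in UTX-AID. It was lower by −0.91 ± 0.04 (adjusted p = 8.01e-15), while Rpl10 differed by −0.09 ± 0.04 (adjusted p = 0.0594).
Rplp2, one of the acidic proteins of the ribosomal stalk that recruits translation factors, was at 585, 629 and 736 CPM against 334, 372 and 400 CPM, a difference of −0.79 ± 0.03. The other stalk genes moved less, Rplp0 by −0.37 ± 0.04 and Rplp1 by −0.32 ± 0.04, both without overlap between the clones. Rpl39l, the paralog of Rpl39 and also known from the testis, was at 35.2, 39.5 and 44.6 CPM against 20.6, 22.3 and 25.6 CPM, whereas Rpl39 differed by −0.11 ± 0.05 (adjusted p = 0.0571).
Rps9 differed by −0.59 ± 0.03 and Rpl8, a large-subunit protein close to the catalytic centre, by −0.56 ± 0.03. Rps2, among the highest in level, fell from 3469 CPM on average in BAP1-AID to 2448 CPM, a difference of −0.50 ± 0.03. Without both high BAP1-AID libraries, 30 genes were higher and 38 lower, while 71.8% of all genes were called, and 62 of the 64 calls were made again in the same direction. With offsets for GC content and transcript length, where 73.8% of all genes were called, 45 of the 64 were called in the same direction and 8 in the opposite one, among them Rpl22l1 (−0.43), Rpl5 (−0.33) and Rpl17 (−0.23), while Rpl26 (0.97), Rplp2 (−0.66), Rpl10l (−1.06), Rpl39l (−1.59) and Rpl8 (−0.41) kept theirs. Leaving out the −IAA 3 h replicate 2 library gave 22 higher and 54 lower, against 71.9% of all genes called.

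The other paralogs and their parents were compared in the same fit. Rpl3l, the muscle paralog of Rpl3, was nearly silent in both clones, at 0.249, 0.846 and 1.26 CPM in BAP1-AID and 1.17, 1.73 and 2.56 CPM in UTX-AID. It was 1.16 ± 0.16 higher in UTX-AID (adjusted p = 5.31e-07), while Rpl3 differed by −0.05 ± 0.04 (adjusted p = 0.191).
Rpl7l1 was 0.16 ± 0.03 higher and Rpl7 0.32 ± 0.04 higher. Rps27l, the paralog of Rps27 that is a target of the tumour suppressor Trp53, was at 363 CPM in BAP1-AID and 314 CPM in UTX-AID, lower by −0.21 ± 0.05 (adjusted p = 5.93e-04).
Rps4l was lower by −0.11 ± 0.03 and its X-linked relative Rps4x higher by 0.38 ± 0.04. Rpl32l, annotated as a pseudogene of Rpl32, stayed between 0.724 and 2.34 CPM. Of Rpsa, which also has a role as a laminin receptor, and Rpl11, which with Rpl5 binds Mdm2, the first was lower by −0.18 ± 0.04 and the second differed by −0.09 ± 0.05 (adjusted p = 0.0850).

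Acute loss of BAP1 is the question of the IAA comparison in BAP1-AID ESCs. Averaged over the RA times, with 6 libraries in each arm, 3 of the 84 genes were higher and 5 lower with IAA, against 17.9% and 18.2% of the 15695 genes tested, and 36.1% of those genes were called in either direction against 8 of the 84. The higher ones were Rpl22l1, Rpl4 and Rpl5, and the lower ones Rpl8, Rplp2, Rps2, Rps4l and Rps9. The median over the 84 was −0.10 and over all genes −0.04, and 67 of the 84 lay below 0.
Leaving out both high libraries, which are in the −IAA arm, turned the median to 0.04 with 48 genes higher and 10 lower, while 38.4% of all genes were called. In that fit all 8 genes were called again in the same direction. The sign of the median thus depended on those 2 libraries, and the signs of the 8 genes did not. Leaving out only the −IAA 3 h replicate 1 library gave 10 higher and 5 lower, while 35.7% of all genes were called, and leaving out its replicate 2 gave 5 higher and 59 lower, while 43.1% were called. Over the 12 fits without 1 library, Rpl22l1, Rpl4, Rpl8, Rplp2 and Rps2 were called in all, Rpl5 in 5, Rps4l in 4 and Rps9 in 3.

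Rpl22l1 rose the most. It was at 133, 138 and 144 CPM without IAA (lowest, median and highest of 6) and at 158, 166 and 179 CPM with IAA. The arms did not overlap, and the difference was 0.26 ± 0.03 (SE, adjusted p = 1.09e-04), or 0.27 ± 0.02 without the high libraries. In the pairs of single groups it was 144.2 and 144.1 against 165.0 and 164.7 CPM at 0 h, 138.1 and 132.7 against 158.5 and 166.5 CPM at 3 h, and 138.3 and 138.5 against 176.3 and 179.0 CPM at 6 h.
Its parent Rpl22 was at 577, 605 and 833 CPM against 614, 643 and 708 CPM, overlapping ranges in which the 2 highest values came from the high libraries. A stretch within Orc5 shares 99.16% of 98.9% of the Rpl22l1 coding sequence, and the Orc5 row was at 109 CPM on average.
Rpl4, a core protein of the large subunit, was at 2148, 2287 and 2357 CPM in the −IAA arm and at 2489, 2543 and 2648 CPM in the +IAA arm. Here too the arms did not overlap, with a difference of 0.15 ± 0.03 (adjusted p = 5.94e-04), and 0.154 ± 0.00512 without the high libraries. Rpl5, which enters the large subunit with Rpl11 as part of a ribonucleoprotein, was at 1059, 1114 and 1263 CPM against 1231, 1251 and 1304 CPM.
Those ranges overlap only through the 3 h high library, and Rpl5 was 0.12 ± 0.04 higher (adjusted p = 0.0365), or 0.20 ± 0.01 without the high libraries.

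Of the 5 lower genes, Rpl8, Rplp2 and Rps2 did not overlap between the arms. Rpl8 was at 2119, 2177 and 2563 CPM without and 1889, 2058 and 2097 CPM with IAA, a difference of −0.19 ± 0.04 (adjusted p = 0.00396). Rplp2 was at 637, 649 and 736 CPM against 585, 608 and 620 CPM, a difference of −0.17 ± 0.04 (adjusted p = 0.00499). Rps2 was at 3402, 3510 and 4148 CPM against 3107, 3355 and 3370 CPM, also −0.17 ± 0.04 (adjusted p = 0.00832).
For all 3 the lowest −IAA value still exceeded the highest +IAA value, although the highest −IAA values came from the high libraries. Without those libraries the differences shrank to −0.11 ± 0.01 for Rpl8 and Rplp2 and to −0.091 ± 0.0039 for Rps2. Rps4l (−0.14 ± 0.04, adjusted p = 0.0164) and Rps9 (−0.15 ± 0.05, adjusted p = 0.0392) overlapped between the arms, and without the high libraries they were lower by −0.076 ± 0.013 and −0.051 ± 0.0094.

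**Figure D4:**
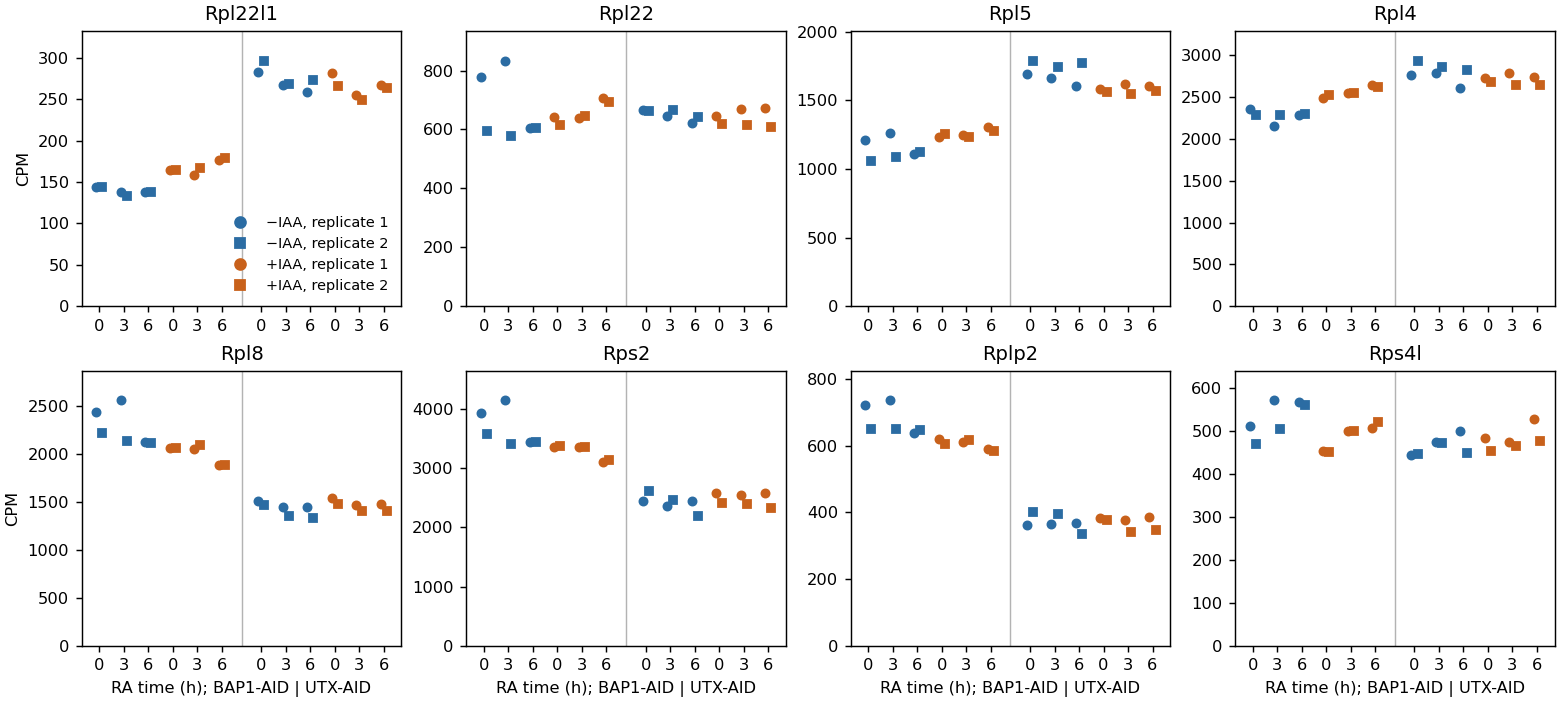
CPM of 8 ribosomal protein genes in every library, by clone, IAA arm, RA time (h) and replicate, each axis starting at 0. In BAP1-AID, Rpl22l1 and Rpl4 lie higher with IAA and Rpl8 and Rps2 lower, and the step between the clones is larger than either.

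Taken time by time in BAP1-AID, IAA called 0 members at 0 h by edgeR (8 at an unadjusted p below 0.05, 1 by DESeq2), against 18.5% of all genes called and 30.8% at the unadjusted p. At 3 h Rpl4 and Rpl22l1 were higher and Rpl3l was lower, against 13.3% of all genes, and at 6 h Rpl22l1 (0.33 ± 0.06) and Rpl4 (0.18 ± 0.04) were higher, against 12.5%. Without both high libraries 16 members were higher and 11 lower at 0 h, against 13.9% and 10.1% of all genes. At 3 h 61 were higher and 3 lower, against 16.7% called in either direction, and at 6 h 39 were higher and 16 lower, against 26.3%. Rpl4, Rpl22l1 and Rpl3l at 3 h and Rpl4 and Rpl22l1 at 6 h were called there too. Rpl3l at 3 h fell from 1.18 and 1.22 CPM to 0.249 and 0.455 CPM. The test of whether IAA altered the RA response called 0 of the 84 at 3 h and 0 at 6 h by edgeR (1 and 2 at an unadjusted p below 0.05, 0 and 1 by DESeq2), against 0% and 0.153% of all genes called and 7.49% and 10.3% at the unadjusted p. The smallest p at 3 h belonged to Rpl3l (−1.50 ± 0.62, adjusted p = 0.628) and at 6 h to Rps27, whose value is set by the 2 libraries in which it changed places with Rps27rt.
Without both high libraries that test called 40 of the 84 above and 1 below 0 at 3 h, against 2.35% of all genes, and 18 above and 10 below 0 at 6 h, against 5.43%. The absence of calls in the fit of all 12 libraries thus depended on those 2. Without them, −IAA 0 h and 3 h held 1 library each. The 3 h one was the lowest of all BAP1-AID libraries, with a summed level of 84219 CPM. The spread then came from the remaining pairs of libraries, whose median absolute log2 differences were 0.0157 to 0.0173. The counts at 3 h, also those for IAA at 3 h above, thus rest on 1 low library. They cannot decide whether IAA altered the RA response.

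The differences with IAA followed base composition. Across the 84 genes, the log2 fold change in BAP1-AID fell with the GC content of the transcript (Spearman's rho −0.68, a description across genes of the same libraries, which are not independent), and rho was −0.47 over 15168 genes with a transcript in the annotation. The median GC content was 41.6% for the 3 higher genes and 54.8% for the 5 lower ones. In UTX-AID rho was 0.46 over the 84 genes and 0.02 over 15687 genes, and between the clones it was −0.27 and −0.28.
Offsets for GC content and transcript length, estimated over genes at large, turned the trend with transcript GC content among the 84 around and did not remove it. With them rho over the 84 was 0.61 for IAA in BAP1-AID and 0.40 between the clones. For the difference of the IAA effects between the clones, taken up below, rho went from 0.67 to −0.44. Values of the 84 with the offsets thus still followed the GC content of the transcript. By the GC content of the coding sequence, known for 83 genes, rho went from −0.70 to 0.23 for IAA in BAP1-AID. It went from −0.53 to −0.003 between the clones and from 0.70 to −0.06 for the difference of the IAA effects. For IAA in BAP1-AID the fit with the offsets called 19 of the 84 higher and 7 lower, against 27.8% of all genes in either direction. In it Rpl4 kept its call (0.13, adjusted p = 4.48e-04), Rpl22l1 and Rpl5 changed sign to −0.07 and −0.17, and Rpl8, Rplp2, Rps2 and Rps4l changed sign to 0.04, 0.03, 0.05 and 0.06. Rpl5 and Rps2 passed the test in the new direction. Whether the trend with GC content arose in the cells or in the libraries was not tested.

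**Figure D5:**
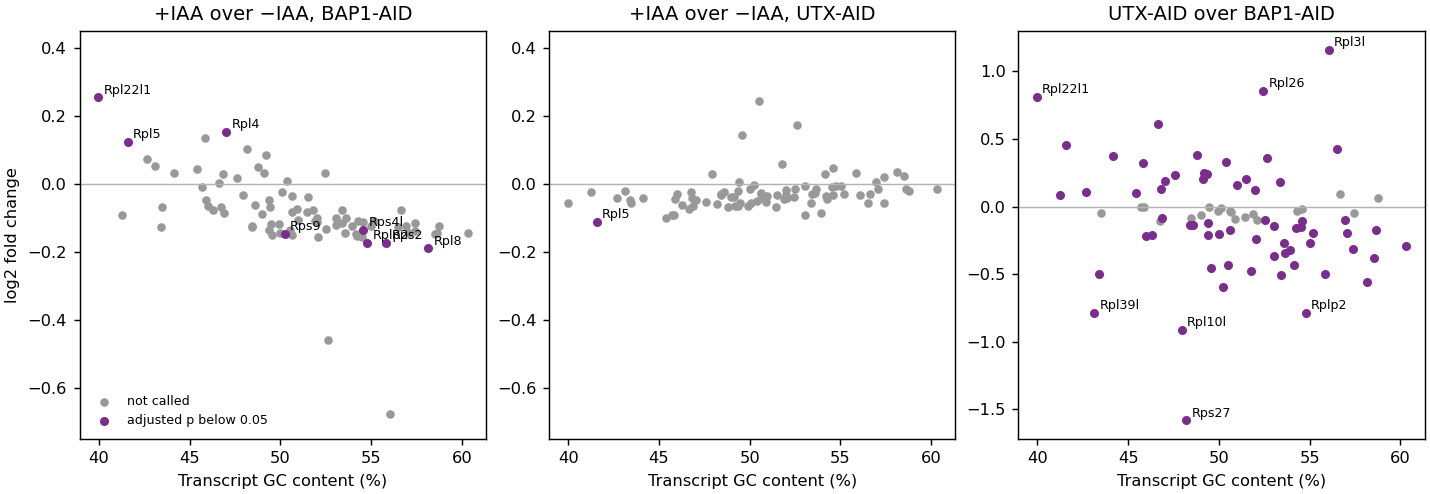
Log2 fold change of each of the 84 genes against the GC content of its canonical transcript (%), for +IAA over −IAA in each clone and for UTX-AID over BAP1-AID (purple, adjusted p below 0.05). In BAP1-AID the change falls from Rpl22l1 at 40.0% GC to Rpl8 at 58.1% GC.

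With IAA in UTX-AID ESCs, where UTX is degraded, 1 of the 84 genes was called, against 2.62% of 16268 genes. This was Rpl5, at 1606, 1718 and 1788 CPM without IAA and 1547, 1577 and 1617 CPM with IAA, lower by −0.11 ± 0.03 (adjusted p = 0.0373). Its arms overlapped because −IAA 6 h replicate 1, at 1606 CPM, lay below +IAA 3 h replicate 1, at 1617 CPM. The call was kept in 3 of 12 fits that left out a library. The median over the 84 was −0.03 and over all genes −0.00. With the replicate number added to the fit as a block, 5 of the 84 were called, Rpl5 among them in the same direction. The share of all genes called in that fit is not given.
At 0 h alone 77 of the 84 lay below 0 with a median of −0.09, and at 6 h 64 lay above 0 with a median of 0.03. No single gene was called at 0, 3 or 6 h by edgeR (27, 4 and 0 at an unadjusted p below 0.05) or by DESeq2, against 0.0430%, 0.264% and 0.0307% of all genes called and 8.01%, 9.33% and 6.26% at the unadjusted p. The test of whether IAA altered the RA response called 0 genes at 3 h and 0 at 6 h by edgeR and by DESeq2 (0 and 17 at an unadjusted p below 0.05), although 82 of the 84 differences at 6 h were above 0, with a median of 0.12. Of all genes 0.0123% and 0% were called, and 4.12% and 3.43% at the unadjusted p. Rps27a, whose product is a fusion with ubiquitin, had the smallest p at 6 h (0.28 ± 0.09, adjusted p = 1.00), and its replicates at 0 h with IAA were 2155 and 1920 CPM.

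Whether IAA acted differently in the clones was tested in one fit over all libraries. The difference of the IAA effects, UTX-AID minus BAP1-AID, was above 0 for 5 genes and below 0 for 6, against 10.9% and 14.9% of 16816 genes, or 25.9% in either direction. Below 0 were Rpl22l1, Rpl4, Rpl5, Rpl21, Rpl7 and Rps15a. Rpl22l1 had the smallest p, at −0.33 ± 0.05 (adjusted p = 1.53e-05), from 0.26 in BAP1-AID and −0.06 in UTX-AID, where it was at 259, 271 and 296 CPM without and 249, 265 and 282 CPM with IAA.
Above 0 were Rpl8, Rpl14, Rps2, Rps4l and Rpl28. For Rpl14 (0.36 ± 0.12) the value rests on one replicate number in UTX-AID −IAA. There replicate 2 was at 683, 689 and 631 CPM at 0, 3 and 6 h and replicate 1 at 915, 884 and 915 CPM, while the 6 libraries with IAA lay between 896 and 989 CPM. Rpl28 showed the same arrangement, with replicate 2 at 569, 606 and 538 CPM and replicate 1 at 688, 690 and 679 CPM. With the GC and length offsets the value of Rpl22l1 was 0.039, and 3 genes were called above and 18 below 0, against 19.0% of all genes. Of the 11 genes 6 changed sign with the offsets, namely Rpl22l1, Rpl5, Rpl8, Rps2, Rps4l and Rps15a. Without both high libraries 1 gene was called above and 37 below 0, against 23.4% of all genes, and 7 of the 11 calls were made again in the same direction. Leaving out the BAP1-AID −IAA 3 h replicate 1 library gave 1 and 16, again against 23.4%, and leaving out its replicate 2 gave 28 and 6, against 30.7%.

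RA, given without LIF, altered few of these genes past the test. In BAP1-AID, over both IAA arms, 1 of the 84 genes was called higher at 3 h and at 6 h and 0 lower. Of all genes 7.26% were higher and 3.91% lower at 3 h, and 14.4% and 9.67% at 6 h. The median was 0.05 at 3 h and −0.03 at 6 h, against 0.00 and 0.01 over all genes. The gene was Rps4l at both times. Without IAA it was at 511 and 470 CPM at 0 h, 572 and 503 CPM at 3 h and 568 and 561 CPM at 6 h. With IAA it was at 454 and 450 CPM, 500 and 501 CPM, and 506 and 521 CPM.
Its 6 h values exceeded the 0 h values in each arm, a rise of 0.22 ± 0.05 (adjusted p = 0.00489), and the rise at 3 h was 0.16 ± 0.05 (adjusted p = 0.0466). The call at 3 h was kept in 3 and the call at 6 h in 11 of 12 fits without 1 library.
Without both high libraries, 8 genes were higher and 13 lower after 3 h, against 9.63% and 5.35% of all genes, and 33 were higher and 12 lower after 6 h, against 32.6%, with Rps4l called at both times. Leaving out the −IAA 3 h replicate 2 library gave 18 higher and 0 lower at 3 h, against 19.4% of all genes, and 1 higher and 14 lower at 6 h, against 30.8%.

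In UTX-AID ESCs RA called 0 of the 84 genes at 3 h and at 6 h by edgeR (1 and 4 at an unadjusted p below 0.05, 1 and 0 by DESeq2), against 8.26% and 12.4% of 16268 genes called and 19.4% and 23.3% at the unadjusted p. The medians were 0.00 and −0.00. Rpl22l1 at 3 h (−0.10 ± 0.04, adjusted p = 0.155) and Rps4l at 6 h (0.12 ± 0.05, adjusted p = 0.110) had the smallest p. Rps4l in UTX-AID was at 444 and 447 CPM at 0 h and 501 and 449 CPM at 6 h without IAA, and at 483 and 453 CPM and 528 and 477 CPM with IAA, so its 6 h values lay above the 0 h values without IAA and overlapped them with IAA.
The 6 h RA response did not differ between the clones for any of the 84 by edgeR or by DESeq2 (1 at an unadjusted p below 0.05, Rpl29), against 2.71% of all genes called and 13.2% at the unadjusted p. The standard error of that difference had a median of 0.10 over the 84 genes.

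Genes of related roles were tested in the same fits, from lists kept as they stood: translation factors and other mRNAs of the TOP class, ribosome assembly factors, RNA polymerase I with growth regulators, and mitochondrial ribosomal proteins. With IAA in BAP1-AID, 8 of 24 translation factors and other TOP mRNAs were higher and 3 lower. The counts for this comparison stand against 17.9% of all genes higher and 18.2% lower. Eif3a, a subunit of an initiation factor, was highest among these by p (0.51 ± 0.03, from 588 to 849 CPM), followed by the nucleolar protein Npm1 (0.34 ± 0.03) and Hnrnpa1 (0.28 ± 0.03). Of 40 assembly factors 11 were higher and 10 lower, among them nucleolin (Ncl, 0.46 ± 0.03), Nop58 (0.38 ± 0.03) and Gnl3 (0.34 ± 0.04). Of the 23 genes of polymerase I and growth control 3 were higher and 4 lower. The higher ones included the kinase of ribosomal protein S6, Rps6kb1 (0.55 ± 0.04), and Taf1b (0.27 ± 0.06), while the polymerase I subunit Polr1e was lower (−0.32 ± 0.06).
Of the 78 mitochondrial ribosomal proteins 3 were higher and 21 lower, with a median of −0.09, and Mrpl34 (−0.42 ± 0.05), Mrpl4 (−0.33 ± 0.05) and Mrpl50 (0.25 ± 0.04) had the smallest p. Without both high libraries, where 38.4% of all genes were called, 13 TOP mRNAs were higher and 5 lower, 16 assembly factors higher and 11 lower, 4 genes of polymerase I and growth control higher and 10 lower, and 11 mitochondrial ribosomal proteins higher and 14 lower. Of the calls of these lists with all libraries, 11 of 11, 20 of 21, 7 of 7 and 17 of 24 were made again in the same direction.
In UTX-AID with IAA the 4 lists held 2 calls, Mrpl14 (0.32 ± 0.07) and Dkc1, a pseudouridine synthase (−0.14 ± 0.03).

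At 6 h of RA, given without LIF, several regulators passed the test. Of the 84 genes only Rps4l did, in BAP1-AID, in the fits of all libraries. Mycn, a transcription factor that drives growth genes, fell from 222 to 94.6 CPM in BAP1-AID (−1.21 ± 0.05) and from 98.2 to 32.9 CPM in UTX-AID (−1.55 ± 0.07). Myc changed by −0.52 ± 0.07 in BAP1-AID, and Polr1b, a core subunit of polymerase I, by −0.28 ± 0.04 there and −0.23 ± 0.06 in UTX-AID. In all, 4 of the 23 genes of polymerase I and growth control were higher and 6 lower in BAP1-AID, against 0 and 3 for the UTX-AID line, where Ubtf was the other named gene (−0.17 ± 0.05). Of all genes 14.4% were higher and 9.67% lower in BAP1-AID, and 12.4% were called in UTX-AID. Assembly factors gave 1 higher and 2 lower in BAP1-AID, against 0 and 3 for the other line. Utp14a was lower in both (−0.31 ± 0.04 and −0.17 ± 0.04), Rrp12 in both (−0.12 ± 0.04 and −0.22 ± 0.04), Ncl higher in BAP1-AID (0.15 ± 0.03) and Tsr2 lower in UTX-AID (−0.18 ± 0.05).
Of the TOP list 3 were higher and 1 lower in BAP1-AID and none were called in UTX-AID. Eif3a (0.26 ± 0.03) and Npm1 (0.15 ± 0.04) were higher, and Eef2, the elongation factor of translocation, was lower (−0.14 ± 0.03). Of the mitochondrial ribosomal proteins 2 were higher and 3 lower in BAP1-AID, with Mrps31 (0.37 ± 0.05), Mrps18c (0.21 ± 0.05) and Mrpl43 (−0.19 ± 0.05) named, and 1 was higher in UTX-AID, Mrps31 again (0.19 ± 0.04). Without both high libraries, where 32.6% of all genes were called, BAP1-AID had 4 higher and 10 lower for polymerase I and growth control, 3 and 13 for assembly, 10 and 7 for the TOP list and 10 and 6 for the mitochondrial list. All calls of these 4 lists with all libraries were made again there in the same direction.

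The genes outside the list whose log2(CPM + 1) followed the log2 summed level of the 84 most closely over the 24 libraries were Atp5c1 (Pearson's r 0.97), Ppia (0.97), Atp5o (0.96), Hint1 (0.94) and Cox6b1 (0.94). Over the 22 libraries without the high ones the same values were 0.79, 0.82, 0.77, 0.80 and 0.61, so part of the likeness rests on those 2 libraries.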

How the data were processed

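Poly(A) RNA from the 12 groups of 2 libraries was sequenced. Per the labels and the methods, it was selected on oligo-dT beads. The authors aligned reads to mm39 with HISAT2 2.2.1, used SAMtools 1.19 and deepTools 3.5.4, and the deposited values are estimated counts per gene from StringTie 2.2.1, all whole numbers and not normalized. The gene annotation, read length and strandedness are not given in the sources used here.

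Genes were tested with edgeR 4.0.16 (R 4.3.3) by glmQLFit and glmQLFTest on TMM-scaled counts, after filterByExpr (at least 10 counts in enough libraries, at least 15 in total). Each clone was fitted alone with 1 term a group, and comparisons of the clones used all 24 libraries. Main comparisons average over the other factor. P-values were adjusted by Benjamini-Hochberg over all genes tested, and all 84 genes passed the filter. The study's rule (adjusted p below 0.05, more than 2-fold) was also counted, and the code was tested on simulated counts. The standard error was taken as the log2 fold change over the root of F.

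The members and gene lists were chosen with earlier results of these data known. Genes named were the paralogs and their parents, the 5 highest and 5 lowest per kb of transcript, Rplp0, Rplp1, Rplp2, Rpsa, Rpl5 and Rpl11, up to 5 members per direction with the smallest adjusted p whose sides did not overlap in at least 1 single contrast (where none was called, up to 2 by p), and up to 3 genes of each other list. Some items that this rule takes in are not reported here. Rps15a, and Rps2 in the comparison of the clones, were named after their values were seen. No paired fit was used, because samples with the same replicate number did not deviate together at over 0.1 in every pair. Transcript lengths, GC content and coordinates came from GENCODE canonical transcripts on GRCm39, and promoters from RefSeq (GRCm38.p6) were placed on GRCm39 by exact match. Copies were found with blastn 2.17.0 at 95% identity or more. Lengths of several canonical transcripts are inflated by long ends.

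Alternatives were DESeq2 1.42.0, RLE size factors, TMM without the members, no filter, the replicate number as a block, GC and length offsets (natural splines with 5 degrees of freedom), 1 fit for all 24 libraries, and each library left out. Summing members with copies and leaving out both high libraries were added after seeing the data.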

Additional observations from a re-analysis of the deposited data

Results flagged for a closer look

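By the test of the difference itself (edgeR, adjusted p below 0.05, UTX-AID minus BAP1-AID), 11 of the 84 genes were called. Of all 16816 genes tested, 1837 were called above and 2513 below 0, which is a larger share. The difference on the log2 scale was −0.33 for Rpl22l1, −0.22 for Rpl4, −0.25 for Rpl5, −0.17 for Rpl21, −0.25 for Rpl7 and −0.16 for Rps15a, and 0.21 for Rpl8, 0.36 for Rpl14, 0.19 for Rps2, 0.16 for Rps4l and 0.28 for Rpl28. Rpl22l1, Rpl4 and Rpl5 rose in BAP1-AID and Rpl8, Rps2 and Rps4l fell there. The only one of the 11 called in UTX-AID was Rpl5. After the offsets for GC content and length, 6 of the 11 changed sign (Rpl22l1, Rpl5, Rpl8, Rps2, Rps4l and Rps15a) and 3 were called in the same direction, Rpl4 (−0.20), Rpl21 (−0.24) and Rpl7 (−0.18). No group has more than 2 libraries, so no single library could be compared with the others of its group.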

How the results depend on the processing

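The depth limits only Rpl3l and Rpl32l, while 2 libraries a group limit all tests. All 84 genes remained with no minimum and 82 at a mean of at least 10 CPM. Leaving mitochondrially encoded genes out of the totals could give no value, since the table holds 0 of them. Of the counts of members called in the 13 comparisons under all alternatives, 521 stayed within 1.5 times and 109 moved. Of the values of named genes 1050 kept their direction and side of the threshold, 130 lost and 10 gained the call, and 33 changed sign. The causes were not tested. Shares of all genes called stand beside the results above for fits without both high libraries. They also stand there for some fits with the offsets or without 1 library. For the other settings they are not given, so those counts of members below cannot be set against a background.

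Members higher with RA at 3 h in BAP1-AID were 0 with RLE size factors, with no filter, with the GC and length offsets (also with the replicate block) and with all 24 libraries in one fit, and 8 without both high libraries. Those lower were 2 with the offsets, 2 with offsets and block and 13 without both high libraries. At 6 h, 7 were lower with the offsets, with or without the block, and 33 were higher and 12 lower without the high libraries. For IAA in BAP1-AID the number higher was 19 with the offsets, 22 with offsets and block, 48 without the high libraries and 5 in the fit of all 24, and 10 were lower without the high libraries. For the effect of IAA on the RA response in BAP1-AID, leaving out the high libraries gave 40 above and 1 below 0 at 3 h and 18 and 10 at 6 h, and DESeq2 and the fit of all 24 gave 1 below 0 at 6 h.

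In UTX-AID, RA at 3 h gave 1 lower by DESeq2, 2 with the offsets and 4 with offsets and block. At 6 h it gave 3 lower with the offsets and 6 with offsets and block, and 1 higher with the replicate block. For IAA, 1 was higher with no filter, 2 with the block and 2 with offsets and block, and 2 were lower by DESeq2, 3 with the block, 3 with the offsets, 10 with offsets and block and 0 in the fit of all 24. For the difference of the IAA effects between the clones, 2 were above 0 with RLE size factors, 3 with the offsets and 1 without the high libraries, and 18, 19 and 37 were below 0 with the offsets, with offsets and block and without the high libraries. Replicate differences correlated between groups at over 0.1 in 1 of 15 pairs of groups in BAP1-AID (−0.11 to 0.39) and in 12 of 15 in UTX-AID (0.02 to 0.39, all 15 above 0), so not every pair passed 0.1 and the numbers were not taken as pairing. The block changed no other count by more than 1.5 times.

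With the offsets alone, and then with offsets and block, these genes changed sign. For IAA in BAP1-AID, Rpl22l1 was at −0.071 and −0.069, Rpl5 at −0.169 and −0.167, Rpl8 at 0.042 in both, Rplp2 at 0.031 in both, Rps2 at 0.046 in both and Rps4l at 0.062 in both. Between the clones, Rpl22l1 was at −0.427 and −0.426, Rpl5 at −0.326 and −0.325 and Rpl17 at −0.234 and −0.233, and for the 6 h response Rpl22l1 was at 0.010 and 0.0095. For the difference of the IAA effects, Rpl8 was at −0.013 in both, Rps2 at −0.028 in both, Rps4l at −0.037 in both, Rpl22l1 at 0.039 and 0.038 and Rpl5 at 0.065 and 0.063, and Rps15a at 0.021 with the offsets alone. Summed with its retrocopy, Rps27 was at 0.023 and 0.208 for the effect of IAA on the RA response in BAP1-AID at 3 h and 6 h. Leaving out 1 library at a time moved its value at 3 h between −4.41 and 0.17, the latter without the +IAA 0 h replicate 2 library.

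Leaving out 1 library at a time gave 0 to 18 higher and 0 to 1 lower for RA at 3 h in BAP1-AID, and 0 to 2 and 0 to 14 at 6 h. It gave 2 to 10 higher and 3 to 59 lower for IAA in BAP1-AID, and 0 to 0 and 0 to 2 at 3 h and 0 to 1 and 0 to 1 at 6 h for the effect of IAA on the RA response. In UTX-AID it gave 0 to 1 higher for RA at 6 h, and 0 to 1 higher and 0 to 2 lower for IAA. Between the clones it gave 20 to 26 higher and 38 to 54 lower, 0 to 1 higher for the 6 h response, and 1 to 28 above and 4 to 16 below 0 for the IAA effects. The widest moves came from the BAP1-AID −IAA 3 h libraries, named beside the results.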
